A study of Homo sapiens with 4 samples.

Results

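The cohesin, condensin, and topoisomerase II genes were followed between 6 h and 24 h of RET inhibition in TPC1 cells. They were chosen by name, as the 4 cohesin genes SMC1A, SMC3, RAD21, and STAG2, the 5 condensin I genes SMC2, SMC4, NCAPD2, NCAPG, and NCAPH, and the single topoisomerase II gene TOP2A. All 10 have a row among the 20372 genes of the deposited table, and all 10 had enough reads to be among the 12876 genes tested. TPC1, an established line from a human papillary thyroid carcinoma, carries a CCDC6-RET rearrangement, and BLU6864 is a selective RET inhibitor. One group (BLU6H) held 2 libraries from cells kept in BLU6864 for 6 h, and the other (BLU24H) held 2 libraries from cells kept in it for 24 h. Both groups thus carry the fusion and received the drug, so every change below is between the 6 h and 24 h groups and not against untreated cells. Vehicle libraries were not analysed here. The dose is 100 µM by the labels and 100 nM by the methods. Both BLU24H libraries carry a re-analysis mark in their labels, and neither BLU6H library does. This mark coincides with time in the drug, so the parts of the mark and of time in a change cannot be told apart. Nothing in the labels says whether the libraries of a time point came from separate cultures, so P values measure the spread between these libraries, which may be technical.

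Cohesin is a ring of SMC1A, SMC3, and the kleisin RAD21, with a STAG subunit bound to it, and it holds sister chromatids together from replication until anaphase. In interphase cells, cohesin also extrudes the loops that fold chromatin, so it is needed in cells that do not divide. Condensin I is a related ring built on SMC2 and SMC4, closed by the kleisin NCAPH and carrying the HEAT repeat subunits NCAPD2 and NCAPG, and it compacts chromosomes after nuclear envelope breakdown. Topoisomerase II passes one DNA duplex through another, and its alpha isoform, encoded by TOP2A, untangles sister chromatids in mitosis and is known as a marker of cycling cells. TOP2B encodes the beta isoform, which is also made in cells that have left the cycle.

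Total counts were between 23917056 and 27457040 reads per library. Across genes, Spearman's rho was 0.998 or more for libraries of the same time and 0.941 or less otherwise. Counts of the libraries of a time differed by more than sampling noise (chi-square over its degrees of freedom, 7.65 for BLU24H and 10.04 for BLU6H), so they are not 1 library deposited again, which does not show that they came from separate cultures. Of 13 epithelial and thyroid markers, PAX8 was abundant, with 20645 and 22045 normalized counts at 6 h and 19961 and 21078 at 24 h, whereas NKX2-1 and TSHR had no read in any library. Of 10 white blood cell markers, 7 had a mean of at most 10 normalized counts, and the summed level of the list went from 4662 to 4878 at 6 h to 2685 to 2758 at 24 h, almost all of it the lysosomal gene CD68. PTPRC, which defines white blood cells, had at most 5 reads in any library.

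The upstream sequences of TOP2A, NCAPG, NCAPH, NCAPD2, and SMC3 are shown because these genes span the range of responses described below, from the largest fall to no change past the test. Each is the 250 bases before the RefSeq start on GRCh38.p14, read 5′ to 3′ on the strand of the gene. The window is chr17:40417897-40418146 on the minus strand for TOP2A, chr4:17810729-17810978 on the plus strand for NCAPG, chr2:96335516-96335765 on the plus strand for NCAPH, chr12:6493852-6494101 on the plus strand for NCAPD2, and chr10:110567445-110567694 on the plus strand for SMC3. Capitals mark the words CCAAT and TTTGAA on either strand, so that ATTGG is CCAAT and TTCAAA is TTTGAA on the opposite strand. No matches overlapped each other. CCAAT is the box bound by the factor NF-Y, and TTTGAA is the core of the cell cycle genes homology region known from mitotic promoters.
TOP2A: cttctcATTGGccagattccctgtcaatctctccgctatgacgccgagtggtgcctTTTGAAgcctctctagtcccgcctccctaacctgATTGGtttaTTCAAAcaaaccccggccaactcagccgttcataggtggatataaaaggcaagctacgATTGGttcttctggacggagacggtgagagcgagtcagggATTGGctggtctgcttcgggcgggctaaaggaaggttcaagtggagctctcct
NCAPG: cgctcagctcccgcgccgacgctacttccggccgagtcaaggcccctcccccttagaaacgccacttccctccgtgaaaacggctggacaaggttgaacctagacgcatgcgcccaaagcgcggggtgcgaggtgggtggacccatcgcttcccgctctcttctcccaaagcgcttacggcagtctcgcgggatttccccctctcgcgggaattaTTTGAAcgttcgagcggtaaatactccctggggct
NCAPH: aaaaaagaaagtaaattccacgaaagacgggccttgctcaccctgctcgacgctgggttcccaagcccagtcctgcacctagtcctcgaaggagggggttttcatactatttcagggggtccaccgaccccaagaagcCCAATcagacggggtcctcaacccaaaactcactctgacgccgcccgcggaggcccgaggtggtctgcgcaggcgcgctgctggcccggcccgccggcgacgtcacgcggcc
NCAPD2: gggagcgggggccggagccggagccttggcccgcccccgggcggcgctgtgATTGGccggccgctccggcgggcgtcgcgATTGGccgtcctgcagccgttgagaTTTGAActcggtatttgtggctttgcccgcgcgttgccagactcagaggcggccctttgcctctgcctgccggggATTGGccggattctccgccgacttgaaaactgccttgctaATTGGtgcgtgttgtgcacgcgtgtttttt
SMC3: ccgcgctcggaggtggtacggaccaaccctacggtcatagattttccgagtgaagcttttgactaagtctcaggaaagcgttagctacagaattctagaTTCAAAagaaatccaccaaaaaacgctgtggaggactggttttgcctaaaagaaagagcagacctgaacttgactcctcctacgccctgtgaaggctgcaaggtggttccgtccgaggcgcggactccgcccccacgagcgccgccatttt
The TOP2A window holds 4 CCAAT boxes, all of them inverted, and 2 TTTGAA words, 1 on each strand. NCAPD2 likewise has 4 inverted CCAAT boxes, with 1 TTTGAA word. NCAPG has a TTTGAA word that begins 35 bases before the start and no CCAAT box. NCAPH has a CCAAT box on the strand of the gene and no TTTGAA word. SMC3, which did not pass the test, also has 1 TTTGAA word, on the opposite strand, 151 to 146 bases before its start. Among the 9 members with a window in the table, 5 had TTTGAA in some window (NCAPD2, NCAPG, SMC3, SMC4, and TOP2A) and 4 had CCAAT (NCAPD2, NCAPH, STAG2, and TOP2A). Counted by window, 5 of the 14 windows of these genes held TTTGAA and 5 of 14 held CCAAT, beside 13.3% and 32.0% of all 35114 windows of the same length. The words known as E2F sites, TTTCCCGC, TTTCGCGC, TTTGCCGC, and TTTGGCGC, were found in 2.79% of all windows and in those of SMC1A and STAG2, and the words TTCGAA and TTTAAA were found in 12.4% of all windows and in none of the 14 windows of the members. RAD21 had no entry. These matches describe letters only, and binding was not measured.

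Of the 10 genes, 9 fell between 6 h and 24 h, 0 rose, and SMC3 did not pass the test. Falls are counted at an adjusted P under 0.05 in the quasi-likelihood test of edgeR (Benjamini-Hochberg, over all genes tested), a limit that 32.6% of all genes tested passed downward and 33% upward. The methods of the study name a log2 change below -0.5 with P under 0.01, and with P taken here before adjustment 8 of the 10 passed these cutoffs, against 17.7% of all genes. Both 24 h libraries lay below both 6 h libraries in 9 of the 10, against 40.8% of all genes, while none of the 10 had both 24 h libraries on top, as 41% of all genes did. The size of the fall divided the genes further. A log2 fold change under -1 with the adjusted P under 0.05 was found for 7 of the 10, namely RAD21, the 5 condensin I genes, and TOP2A, whereas 8.5% of all genes went this far. The median log2 fold change was -0.55 over the 4 cohesin genes and -2.01 over the 5 condensin I genes, beside 0.0029 over all genes tested. Proliferation markers moved along with these genes. All 10 of a list that includes PCNA and PLK1 fell, with log2 fold changes from -0.51 in MCM6 to -4.48 in CCNA2. Their summed normalized counts were 40162 and 40451 at 6 h and 4651 and 4580 at 24 h. The part of this shift in the changes below was not tested. In RNA from whole cultures, fewer cycling cells, whether in mitosis or another phase, and less transcript per cell cannot be told apart.

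**Figure D1:**
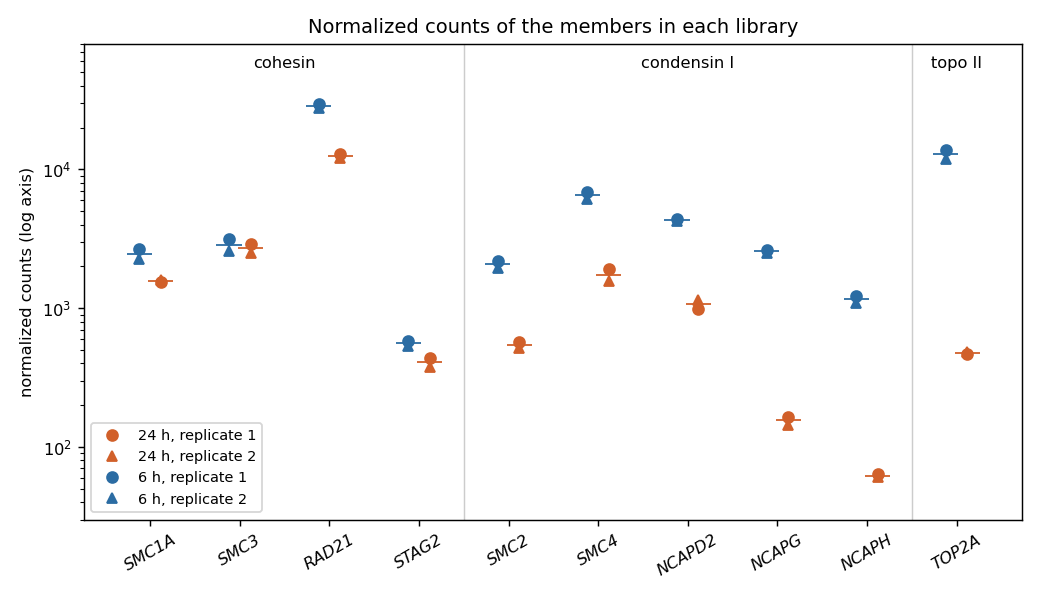
Normalized counts of the 10 genes (log axis) in the 4 libraries, with circles for replicate 1, triangles for replicate 2, blue for 6 h, orange for 24 h, and a line at each mean. The groups overlap in SMC3, and they lie furthest apart in TOP2A, where the 6 h libraries stand at 13881 and 11818 and the 24 h libraries at 467 and 485.

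TOP2A had the largest change of the 10. Its normalized counts, reads scaled to a common library size by the TMM method, were 13881 and 11818 in the BLU6H libraries and 467 and 485 for BLU24H. Each 6 h library thus lay far above each 24 h library, and the mean went from 12850 ± 1459 (SD, n = 2) to 476 ± 12.3, or 3.70% of the 6 h level. The gene (ENSG00000131747, chromosome 17 of hg19 from 38544768 to 38574202) had a log2 fold change of -4.75 ± 0.0960 (SE, adjusted P = 3.85e-24 by edgeR), a level 27.0-fold lower at 24 h. Among all genes tested, 0.287% had a lower log2 fold change. TOP2B, the paralog, had 5000 and 4232 normalized counts at 6 h and 4662 and 4221 at 24 h, so that the groups overlapped. Its log2 fold change was -0.06 (edgeR adjusted P = 0.558), with a 95% interval from -0.22 to 0.11, and its sign turned without replicate 2 of BLU24H (0.02) or replicate 1 of BLU6H (0.07). Divided by transcript length, TOP2A made up 73.9% and 74.0% of topoisomerase II transcripts at 6 h and 9.28% and 10.5% at 24 h.

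Within condensin I, the genes of the kleisin NCAPH and of the HEAT repeat subunit NCAPG fell further than those of the other subunits, though the differences between genes were not tested. NCAPH (ENSG00000121152, chromosome 2 from 97001525 to 97039583) had 1223 and 1087 normalized counts at 6 h and 63.8 and 60.3 at 24 h. With 64 and 62 reads at 24 h, it was the least abundant of the 10 genes there, with a log2 change of -4.21 ± 0.121 (SE, adjusted P = 4.59e-21 by edgeR). NCAPG (ENSG00000109805, chromosome 4 from 17812525 to 17846485) had 2612 and 2507 normalized counts at 6 h and 165 and 145 at 24 h. This is a log2 fold change of -4.04 ± 0.0920 (SE, adjusted P = 4.07e-23 by edgeR). In neither gene did the time points come near each other, and 5.37% and 6.06% of the 6 h level was left of NCAPH and NCAPG.

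The other condensin I genes kept about 25% of their 6 h level. NCAPD2 (ENSG00000010292, chromosome 12 from 6602522 to 6641121), which encodes the second HEAT repeat subunit, had 4364 and 4251 normalized counts at 6 h and 986 and 1147 at 24 h, so that the log2 change was -2.01 ± 0.0788 (SE, adjusted P = 5.02e-18 by edgeR). The ATPase subunit gene SMC4 (ENSG00000113810, chromosome 3 from 160117062 to 160152750) had 6820 and 6156 at 6 h and 1918 and 1562 at 24 h, so that the log2 change was -1.90 ± 0.0861 (SE, adjusted P = 1.34e-16 by edgeR). Its partner SMC2 (ENSG00000136824, chromosome 9 from 106856541 to 106903698) had 2194 and 1943 at 6 h and 569 and 514 at 24 h, so that the log2 change was -1.93 ± 0.0826 (SE, adjusted P = 3.54e-17 by edgeR). In all of these genes the 24 h libraries were well below the 6 h libraries. The 95% intervals of the log2 fold change were -4.46 to -3.97 for NCAPH and -4.23 to -3.85 for NCAPG, and those of NCAPD2, SMC4, and SMC2 lay between -2.18 and -1.72. Within each library, the log2 ratio of NCAPH to SMC2 was -0.84 in both BLU6H libraries and -3.16 and -3.09 for BLU24H. The log2 ratio of SMC2 to SMC4, whose proteins pair in every condensin, was -1.64 and -1.66 at 6 h and -1.75 and -1.60 at 24 h, where the time points overlapped. With 2 libraries against 2, an exact two-sided permutation test of such a ratio cannot go below P = 0.333, so no test of the ratios is given.

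**Figure D2:**
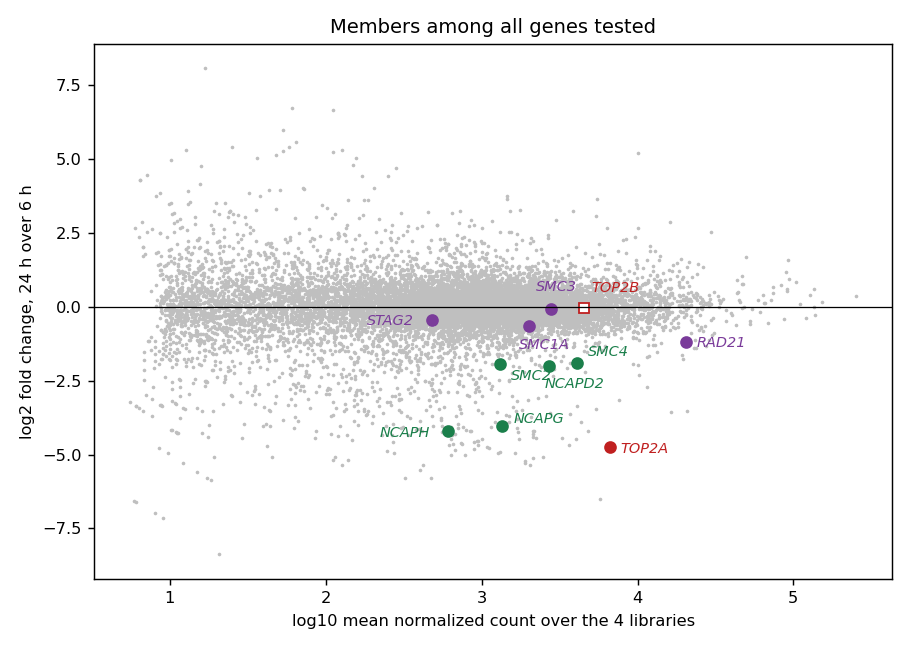
Each gray point is a gene tested, with its log10 mean normalized count over the 4 libraries on the horizontal axis and its log2 fold change (24 h over 6 h) on the vertical axis, and the members are colored purple (cohesin), green (condensin I), and red (TOP2A, with TOP2B as an open square). NCAPG, NCAPH, and TOP2A lie at -4.04 to -4.75, SMC2, SMC4, and NCAPD2 near -1.9 to -2.0, and SMC3 and TOP2B near 0.

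Of the 4 cohesin genes 3 fell, where 32.6% of all genes tested fell, and each of the 3 fell by less than any condensin I gene. RAD21 (ENSG00000164754, chromosome 8 from 117858174 to 117887105), the kleisin that separase cleaves at anaphase, was the most abundant of the 10 genes at both times. It had 29395 and 27545 normalized counts at 6 h and 12850 and 12095 at 24 h, and no 24 h library reached a 6 h library. The log2 fold change was -1.19 ± 0.0808 (SE, adjusted P = 7.42e-13 by edgeR), a 2.28-fold lower level. SMC1A (ENSG00000072501, chromosome X from 53401070 to 53449677), an ATPase subunit, had 2669 and 2267 normalized counts at 6 h and 1551 and 1598 at 24 h. On the log2 scale it changed by -0.65 ± 0.0772 (SE, adjusted P = 4.31e-08 by edgeR). STAG2 (ENSG00000101972, chromosome X from 123094062 to 123556514), which binds RAD21 and is often lost in cancers, had 579 and 537 at 6 h and 440 and 377 at 24 h. These groups did not overlap, but the log2 fold change of -0.45 ± 0.0980 (SE, adjusted P = 0.000256 by edgeR) is under the size cutoff of the study. The log2 fold change of STAG2 was past that size cutoff without replicate 1 of BLU24H (-0.562) or replicate 2 of BLU6H (-0.503). It was smaller in size without replicate 2 of BLU24H (-0.334) or replicate 1 of BLU6H (-0.396).

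SMC3 (ENSG00000108055, chromosome 10 from 112327449 to 112364394), the partner of SMC1A, did not pass the test. It had 3134 and 2577 normalized counts at 6 h and 2896 and 2511 at 24 h, so the ranges of the time points overlapped. The log2 fold change was -0.08 (edgeR adjusted P = 0.429), with a 95% interval from -0.25 to 0.10, while the interval of SMC1A ran from -0.81 to -0.49. Its sign turned to 0.03 without replicate 2 of BLU24H and to 0.07 without replicate 1 of BLU6H. The log2 ratio of RAD21 to SMC3 within a library was 3.23 and 3.42 at 6 h and 2.15 and 2.27 at 24 h, so the kleisin transcript became less abundant relative to that of the ATPase.

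Taken as means over their genes, condensin I fell by more than 2 log2 units beyond cohesin between 6 h and 24 h. The mean log2 normalized count of the 5 condensin I genes minus that of the 4 cohesin genes was -0.25 and -0.19 in the BLU6H libraries and -2.46 and -2.44 for BLU24H. The change between the means was -2.23 on the log2 scale, and a ratio within a library does not depend on how libraries are scaled. This mean includes the larger falls of NCAPG (-4.04) and NCAPH (-4.21). NCAPD2, SMC2, and SMC4 had -2.01, -1.93, and -1.90, and the median log2 fold changes were -2.01 for condensin I and -0.55 for cohesin.

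The order of the genes by abundance was compared on normalized counts per kilobase of the canonical transcript in GENCODE v44. These lengths belong to hg38, whereas reads were counted on hg19, and ranges between libraries do not cover an error in length. At 6 h, RAD21 led with 7779 ± 357 per kilobase (SD, n = 2), followed by TOP2A (2256 ± 256), SMC4 (1268 ± 91.8), NCAPD2 (893 ± 16.6), NCAPG (558 ± 16.3), SMC3 (517 ± 71.3), SMC2 (349 ± 29.9), SMC1A (254 ± 29.2), NCAPH (192 ± 16.0), and STAG2 (90.3 ± 4.73). Neighbors in this order did not overlap between libraries, apart from NCAPG and SMC3, whose ranges did. At 24 h, RAD21 was still first with 3408 ± 146 per kilobase, but SMC3 was next (490 ± 49.4), and TOP2A had gone from the second place to the seventh (83.6 ± 2.16), between SMC2 (91.3 ± 6.57) and STAG2 (66.1 ± 7.30). NCAPG (33.8 ± 3.14) and NCAPH (10.3 ± 0.402) were last. All neighbors at 24 h had separate ranges, though those of SMC2 and TOP2A lay close, at 86.7 to 96.0 and 82.0 to 85.1 per kilobase.

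**Figure D3:**
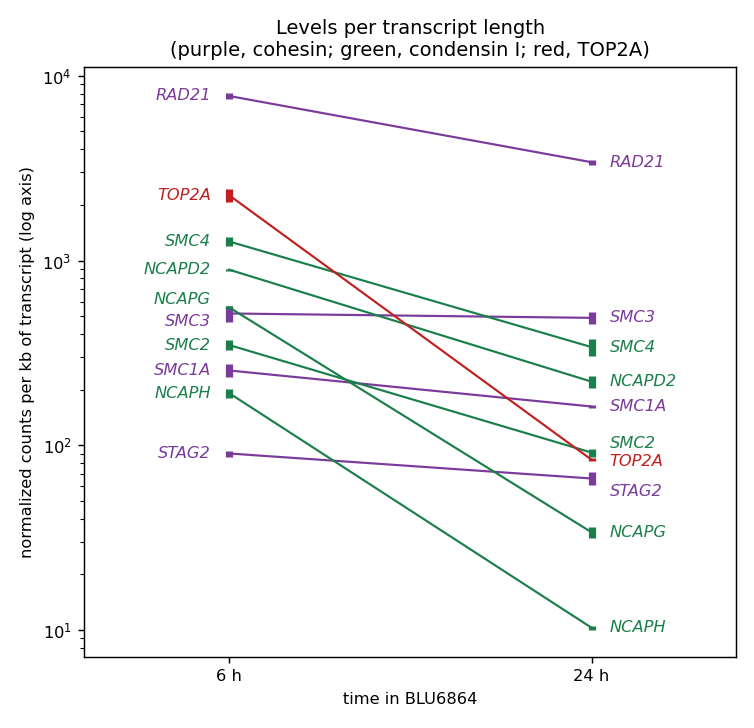
Normalized counts per kilobase of transcript (log axis) at 6 h and 24 h, with lines joining the means of the 2 libraries and thick bars spanning the libraries. TOP2A crosses from 2256 to 83.6 and NCAPH from 192 to 10.3, whereas the line of SMC3 is nearly flat from 517 to 490.

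Other subunits of the same machines were read from lists of related genes. Condensin II, which is nuclear throughout the cycle and shares SMC2 and SMC4 with condensin I, has its own kleisin NCAPH2 and HEAT repeat subunits NCAPD3 and NCAPG2. All of these fell, NCAPG2 (log2 fold change -2.73, edgeR adjusted P = 1.36e-19), NCAPD3 with -2.03 (6.42e-16), and NCAPH2 with -0.71 (5.32e-08). Among all genes tested 32.6% fell, and 8.5% did so with a log2 fold change under -1, as NCAPG2 and NCAPD3 did. MCPH1, a regulator of condensin II, had -0.06 (edgeR adjusted P = 0.588), and its sign turned without replicate 2 of BLU24H or replicate 1 of BLU6H (to 0.04 in the latter). NCAPH2 had 824 and 894 normalized counts at 6 h and 529 and 520 at 24 h, so it kept 61.0% of its 6 h level. Per length, NCAPH made up 45.1% and 40.2% of the pair NCAPH and NCAPH2 at 6 h and 6.25% and 6.04% at 24 h. NCAPG made up 57.8% and 57.9% of the pair NCAPG and NCAPG2 at 6 h and 35.6% in both 24 h libraries. For NCAPD2 and NCAPD3 the shares overlapped, at 83.2% and 84.7% for NCAPD2 at 6 h and 81.6% and 86.3% at 24 h.

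Among 5 other cohesin subunits, SMC1B had too few reads to be tested. STAG1, the alternative to STAG2, had 2377 and 1969 normalized counts at 6 h and 2272 and 2094 at 24 h, and its log2 fold change of 0.01 had an adjusted P of 0.937 in edgeR and turned negative with library size alone (-0.03), without replicate 1 of BLU24H (-0.05), or without replicate 2 of BLU6H (-0.12). Per length, STAG2 made up 19.3% and 21.1% of STAG transcripts at 6 h and 16.0% and 15.0% at 24 h, so that STAG1 was the more abundant in all 4 libraries. The meiotic kleisin genes moved apart at low levels, RAD21L1 from 78.8 and 81.6 normalized counts to 30.9 and 26.3 (log2 fold change -1.49, edgeR adjusted P = 2.63e-06) and REC8 from 126 and 123 up to 220 and 203 (log2 fold change 0.77, edgeR adjusted P = 2.10e-05). The meiotic gene STAG3 fell (log2 fold change -0.43, edgeR adjusted P = 0.00300), and its adjusted P was 0.0634 without replicate 1 of BLU24H.

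Genes that load cohesin on chromatin and release it had small log2 fold changes. Of 7 genes, 4 fell, 1 rose, and 2 did not pass the test, where 32.6% of all genes fell and 33% rose, with log2 fold changes from -0.45 to 0.33 and none beyond 0.5 in size. The loader gene NIPBL fell (log2 fold change -0.31, edgeR adjusted P = 0.000485), while its partner MAU2 had -0.06 (edgeR adjusted P = 0.479). WAPL, which opens the ring to release it, was the one that rose, from 2531 and 2322 normalized counts to 3032 and 3051 (log2 fold change 0.33, edgeR adjusted P = 0.000268). PDS5A, HDAC8, and CTCF fell by 0.45, 0.33, and 0.22 on the log2 scale, and PDS5B had -0.13 (edgeR adjusted P = 0.121, or 0.0427 with scaling by library size alone). CTCF did not pass without replicate 1 of BLU24H (adjusted P = 0.0726) or without replicate 1 of BLU6H (0.268), and HDAC8 did not pass without replicate 2 of BLU24H (0.0607).

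Most of the genes that establish and protect cohesion in dividing cells fell. Of 12 genes, 9 fell, 0 rose, and 3 did not pass, with a median log2 fold change of -2.14. Among all genes 32.6% fell, and 8.5% did so with a log2 fold change under -1, which 8 of these 12 had. ESCO2, the acetyltransferase that acts on SMC3 in S phase, had 1194 and 1251 normalized counts at 6 h and 55.8 and 53.5 at 24 h, which is -4.48 on the log2 scale (adjusted P = 7.33e-22 by edgeR). ESCO1, which acetylates cohesin through interphase, had 803 and 778 at 6 h and 815 and 587 at 24 h, so the groups overlapped, and the log2 fold change was -0.17 (edgeR adjusted P = 0.148). Without replicate 1 of BLU24H it was -0.43, with an adjusted P of 0.000830 in edgeR, and without replicate 2 it was 0.05 (0.687). ESCO2 shares 3021 bases with PBK, which had a log2 fold change of -5.21. CDCA5, or sororin, which keeps WAPL from opening the ring, fell from 917 and 871 normalized counts to 68.7 and 68.1 (log2 fold change -3.70, edgeR adjusted P = 4.96e-20). The shugoshin genes SGO1 and SGO2, which guard centromeric cohesin, fell with log2 fold changes of -4.34 and -3.60, and the replication fork factors DSCC1, WDHD1, CHTF18, TIMELESS, and TIPIN with -3.03, -2.51, -1.77, -1.67, and -0.30. TIPIN had an adjusted P of 0.0267 in edgeR, of 0.123 in DESeq2, and over 0.05 without replicate 1 of BLU24H or either BLU6H library. The helicase gene DDX11 and CHTF8 had -0.04 and -0.09 and did not pass, DDX11 turning to 0.03 without replicate 2 of BLU6H and CHTF8 being read from its row with counts and not from a second row at 0. Separase, the protease that cuts RAD21, and its inhibitor securin both fell, ESPL1 with a log2 fold change of -3.45 and PTTG1 with -3.51.

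**Figure D4:**
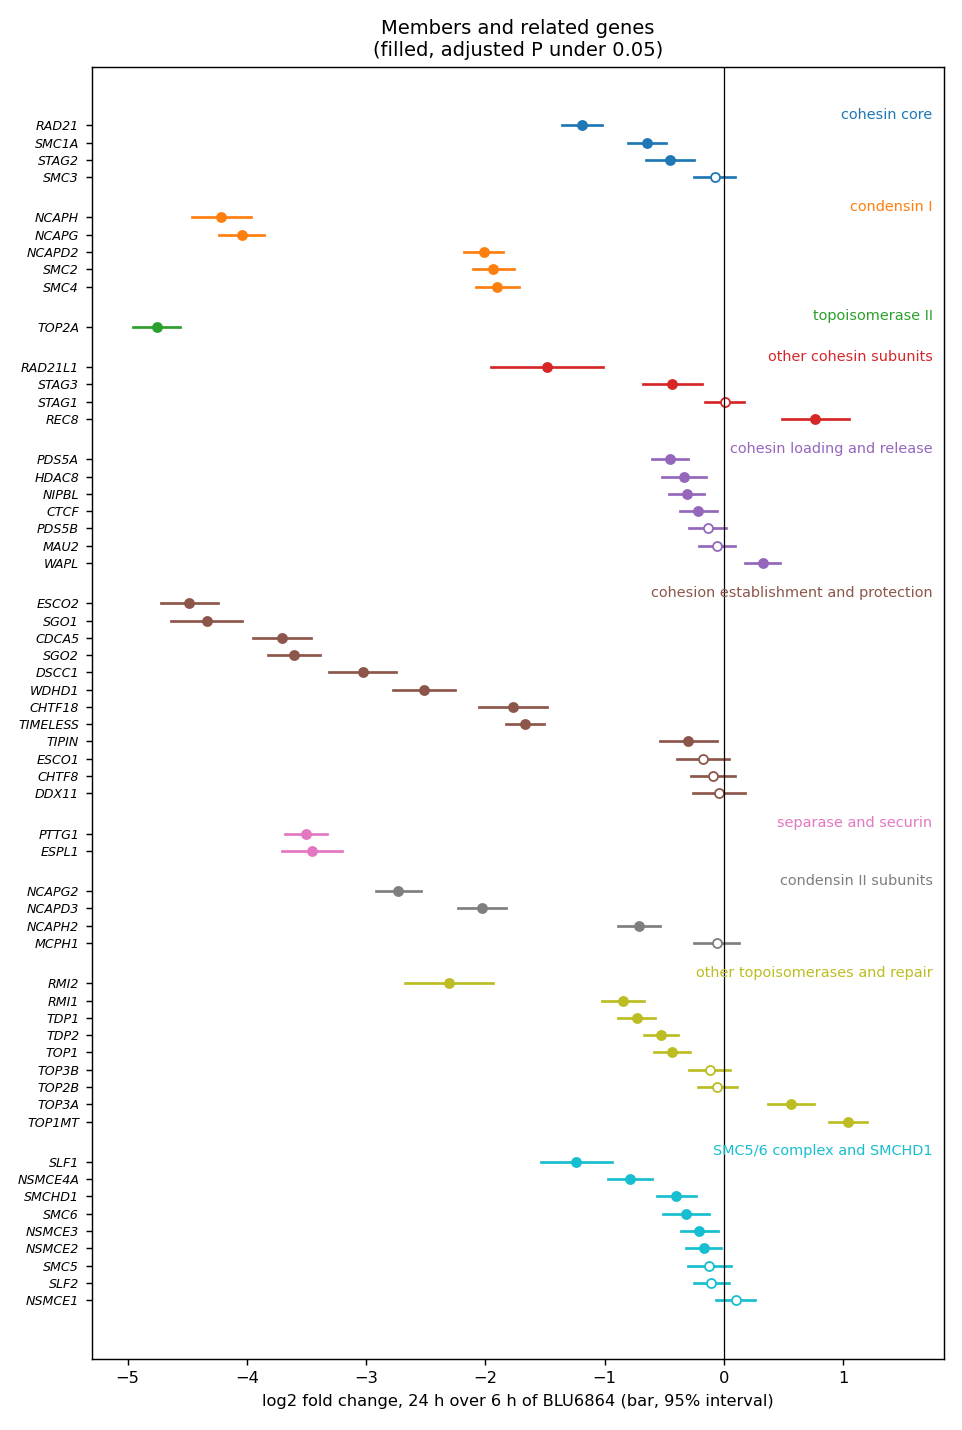
Log2 fold change (24 h over 6 h) of the 10 genes and of the related genes tested, in colors by list, with bars for the 95% interval and filled points for an adjusted P under 0.05. Condensin I and the cohesion establishment genes reach -4.21 and -4.48, the cohesin loading and release genes stay between -0.45 and 0.33, and TOP1MT lies at 1.04.

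Of 9 other topoisomerases and partners, 5 fell, 2 rose, and 2 did not pass, beside 32.6% lower and 33% higher among all genes. TOP1, which relaxes DNA ahead of polymerases, fell (log2 fold change -0.43, edgeR adjusted P = 9.13e-06). The mitochondrial enzyme gene TOP1MT rose from 869 and 774 normalized counts to 1691 and 1690 (log2 fold change 1.04, edgeR adjusted P = 3.81e-12), and TOP3A rose with 0.56 (1.08e-05). TOP3B had -0.12 (edgeR adjusted P = 0.204). RMI2 and RMI1, partners of TOP3A, fell with -2.31 and -0.85, and TDP1 and TDP2, which remove trapped topoisomerases from DNA, with -0.73 and -0.52. RMI2 shares 1775 bases with SOCS1, which itself had a log2 fold change of -1.86.

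The third SMC complex, SMC5/6, acts in DNA repair. Of 10 listed genes of this complex and SMCHD1, 9 were tested, of which 6 fell, 0 rose, and 3 did not pass, with a median of -0.20. Among all genes 32.6% fell, and the calls of SMC6, NSMCE2, and NSMCE3 were lost in some fits. Its ATPase genes SMC5 and SMC6 had log2 fold changes of -0.12 (edgeR adjusted P = 0.235) and -0.32 (0.00414), and the largest falls were in SLF1, with -1.24, and in NSMCE4A, with -0.79. SMC6 did not pass without replicate 2 of BLU24H (adjusted P = 0.180) or without replicate 1 of BLU6H (0.0737), NSMCE3 did not pass with DESeq2 (0.0680) or without either of these libraries (0.195 and 0.142), and NSMCE2 passed neither with DESeq2 (0.0646), with no filter (0.0509), with upper quartile scaling (0.0720), nor in any fit with a library left out. The log2 fold change of SMC5 was -0.25 without replicate 1 of BLU24H, and its sign turned without replicate 2 of BLU24H (0.0076). SMC6 overlaps GEN1, with a log2 fold change of -1.63.

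**Figure D5:**
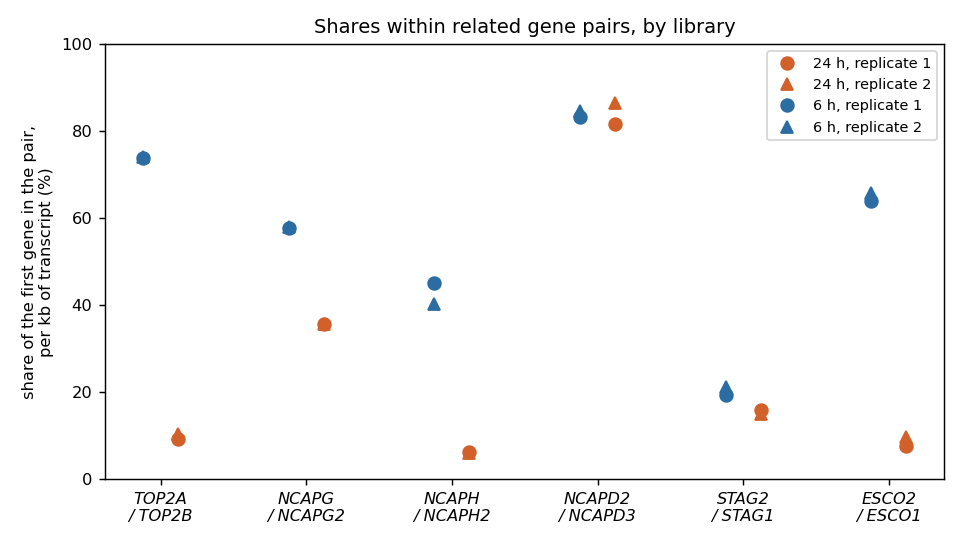
Share of the first gene in each pair, as a percentage of the pair's normalized counts per kilobase, in each of the 4 libraries (circles, replicate 1, triangles, replicate 2, blue, 6 h, orange, 24 h). The share of TOP2A goes from 74.0% on average to 9.89% and that of ESCO2 from 64.9% to 8.70%, whereas that of NCAPD2 is 83.9% and 84.0%.

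The genes with a profile most like that of TOP2A and of SMC3 were then searched. Likeness was the root mean square difference of log2 normalized counts, with 1 added and centered on each gene, over the 4 libraries, among 10747 genes with a mean of at least 100 normalized counts. The nearest to TOP2A were KIF2C (0.0570), CENPA (0.0829), CKAP2L (0.105), NDC80 (0.121), and TTK (0.121), with log2 fold changes from -4.62 to -4.93. For SMC3 they were SYTL3 (0.0164), AGK (0.0188), ETFB (0.0233), TOP2B (0.0290), and CCAR1 (0.0293), all with log2 fold changes between -0.10 and -0.04. A likeness over 4 libraries in 2 groups reflects mostly the size of the change.

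Some of these genes lie over others in the deposited table, and the strand setting of the counting is not given in the sources used here. SMC3, SMC2, NCAPH, and TOP2A overlap no other gene of the table. RAD21 shares 3529 bases with UTP23, which had 4717 reads in all against 81268 for RAD21 and a log2 fold change of 0.44. NCAPD2 shares 486 bases with MRPL51 (log2 fold change -0.56), NCAPG 3664 bases with LCORL (-0.45), and SMC4 2518 bases with TRIM59 (-0.56) and 607 bases with IFT80 (-0.34). SMC4 also shares its whole span, 35689 bases, with RP11-432B6.3, which had 0 reads. STAG2 spans TENM1 and SH2D1A in part, which had 223 and 35 reads in all, and SMC1A shares 39 bases with RIBC1. Among the related genes, SLF1 (796 reads in all) shares 35696 bases with MCTP1 (11203 reads, log2 fold change 1.21). RAD21L1 (216 reads) shares 30106 bases with SNPH (1594 reads, -0.0044), and STAG3 (999 reads) 20829 bases with GATS (1289 reads, -0.03). CHTF8 (2211 reads) shares 710 bases with HAS3 (58574 reads, -0.25) and 1294 bases with CIRH1A (5166 reads, 0.75). NSMCE3 (4982 reads) shares 1681 bases with FAM189A1 (1915 reads, -0.02), and SGO2 (2885 reads) 9777 bases with KCTD18 (3816 reads, -0.32). The part of these neighbors in the counts was not tested.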

How the data were processed

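RNA-seq covered TPC1 cells after 6 h and after 24 h in BLU6864, with 2 libraries each. According to the submitters' processing notes, the authors aligned reads with STAR 2.3 to hg19 and compared the groups with DESeq2, whereas the paper's methods name another STAR release. The authors deposited raw counts of reads on each of 20372 genes, 4039 of them with no read, and a normalized signal, the count divided by a size factor per library, which was checked but not used. Columns of the authors' own comparison (fold change, error, P) were not used.

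The test on raw counts was that of edgeR 4.0.16 (R 4.3.3), with filterByExpr, TMM scaling, the quasi-likelihood test, time as the only factor, and Benjamini-Hochberg adjustment over the 12876 genes kept, which hold 99.97% of counts. Standard errors are the absolute log2 fold change over the root of F, and 95% intervals follow from them. The biological coefficient of variation was 0.0521, estimated mostly from all genes together. DESeq2 1.42.0 was an alternative test. Related genes were given from hand-written lists, and 6 of their genes were matched by older symbols. The members, lists, tests, and promoter words were chosen with earlier results of these data known. All members and all genes of the cohesin, condensin, topoisomerase, and SMC5/6 lists could be named, of the other lists the largest rise and fall, and the 5 genes nearest to TOP2A and to SMC3. The neighbors that overlap a named gene, MCM6, PAX8, CD68, PTPRC, and the marker genes at 0 or near it, were named after their values were seen. The list of 5 mitotic chromosome scaffold genes had 5 lower genes, from MKI67 (-4.32) to PPP1CC (-0.78), with a median log2 fold change of -4.07. Of the 13 epithelial and thyroid markers, 7 were tested, of which 2 fell and 3 rose. Of the 10 white blood cell markers, 3 were tested, of which 1 fell and 1 rose. Beside the counts of these lists, 32.6% of all genes tested fell and 33% rose.

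Positions are those of the table, since only 3.94% of genes start within 1000 bases of their GENCODE v44 position on hg38. Promoters came from RefSeq on GRCh38.p14, and positions of these builds were not mixed. Levels per kilobase and shares within gene pairs do combine builds, since counts on hg19 were divided by transcript lengths from hg38. Scripts were tested on simulated data. Plots were drawn with matplotlib 3.10.9.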

Additional observations from a re-analysis of the deposited data

How the results depend on the processing

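The test was repeated with DESeq2, with 3 other scalings (library size alone, upper quartile, RLE), with no filter or a minimum of 10 counts per library, with the replicate block, with an adjusted P under 0.01, and with each library omitted. In the last, the lone library of a time point is assumed to vary like the other group. In every one of these, 9 of the 10 genes were lower at 24 h, 0 were higher, and SMC3 did not pass. For single members, 108 refitted log2 fold changes kept their direction and their side of the threshold, and 2 did not. Both were of SMC3, 0.0279 without replicate 2 of BLU24H and 0.0690 without replicate 1 of BLU6H, and the cause was not tested. The adjusted P of SMC3 was between 0.0505 and 0.824, and its log2 fold change between -0.21 and 0.07. TOP2A stayed between -4.87 and -4.63. The number of genes past the cutoffs of the study was 8, or 9 without replicate 1 of BLU24H or replicate 2 of BLU6H.

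The median of the condensin I genes ranged from -2.12 to -1.99 with a library left out, and the lowest value, without replicate 2 of BLU24H, lay outside 1 SD of the replicates, the cause of which was not tested. That of the cohesin genes ranged from -0.63 to -0.46, and the log2 ratio of condensin I to cohesin from -2.26 to -2.20. Over all genes, 3608 lower and 3584 higher genes were called with DESeq2, against 4196 and 4247 with edgeR. With library size alone these were 4542 and 3874, and with upper quartile scaling 3892 and 4468.

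Replicate numbers 1 and 2 occur at both times, but no source says what they mark, and the deviations of same-numbered libraries had a correlation of 0.0757 across genes. With the replicate number as a block, 9 members were lower and 0 higher, 8 passed the cutoffs of the study, the medians were -2.01 for condensin I and -0.55 for cohesin, and 4448 lower and 4524 higher genes were called among all genes. Among the related genes, ESCO1 passed under the block (adjusted P = 0.0235). The 10 genes had between 62 and 28711 reads in a library, and what depth alone limits was not tested.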
